A study of Mus musculus with 22 samples.

Results

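The collagen genes comprised every gene whose symbol is Col, a number, the letter a and a number, which gave 44 genes of the 19721 listed in at least 1 library. They were measured by RNA sequencing in 22 libraries of J1, a line of mouse embryonic stem (ES) cells, and of embryoid bodies (EBs), the aggregates in which ES cells differentiate into mixtures of cell types. Of these, 10 came from EBs exposed to TBBPA (tetrabromobisphenol A, a brominated flame retardant), with 1 library at 10 nM and 1 at 100 nM on each of 5 days (D4, D9, D12, D18 and D28). Another 10 came from EBs given the solvent, 0.1% DMSO, with 2 libraries a day, and 2 came from untreated ES cells. The number after D in the titles was read as the day. All libraries share the J1 line, the labels do not tell whether the libraries of 1 group are separate cultures, and each dose has 1 library a day. The p-values therefore measure the spread between these libraries, which may be technical. The series asked how gene expression in developing EBs depends on TBBPA.

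Collagens are secreted proteins whose chains wind around each other into a rope-like helix. Fibrillar collagens (types I, III and V) build the fibrils of connective tissue, and types II, IX, X and XI belong to cartilage. Type IV forms the sheet of the basement membrane, where types XV and XVIII are also found, and types VI and VIII form finer networks. FACIT collagens such as types XII and XIV sit on the surface of fibrils, type VII anchors the epidermis to the dermis, and a few collagens are held in the cell membrane. ES cells make little collagen, and in EBs basement membrane is laid down by the early endoderm and connective tissue collagen by mesenchyme.

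Library totals were 18158583 to 18998141 counts, and 37 to 44 of the collagen genes were listed per library, with 34 listed in all 22. The labelled cell type was checked with 5 ES cell markers (Pou5f1, Nanog, Esrrb, Zfp42 and Tfcp2l1), whose summed FPKM (fragments per kilobase of transcript, scaled to the mapped reads of the library) was 2103 and 2039 in the ES libraries and 147 to 188 at D28. All 5 were listed in every library. The 2 ES libraries differed from each other more than any other pair did, with a chi-square per gene of 22.5, against 1.63 to 3.38 within the DMSO pairs and 3.26 to 7.96 between the 10 nM and the 100 nM library on the same day. Collagen genes took 0.0381 and 0.0268% of the counts in the ES libraries and 2.89 and 2.94% in DMSO EBs at D28. In these bulk libraries, fewer cells of a type and less RNA per cell cannot be told apart.

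The collagen genes rose over the control time course, in an order that differed by class. Of 44 members, 31 had their highest group mean at D28, 8 at D18, 4 at D12 and 1 at D4. The number of members with a mean of at least 1 FPKM was 7 in ES cells, 9 at D4, 27 at D9, 27 at D12, 32 at D18 and 34 at D28. In edgeR's quasi-likelihood test (Benjamini-Hochberg adjustment over all genes, threshold 0.05), 41 of the 43 tested members were higher at D28 than in ES cells and 0 were lower, where 83.1% of all 16203 genes passed (45.0% higher and 38.2% lower). Col13a1 and Col6a4 did not pass, and Col28a1 had too few counts to be tested.

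**Figure D1:**
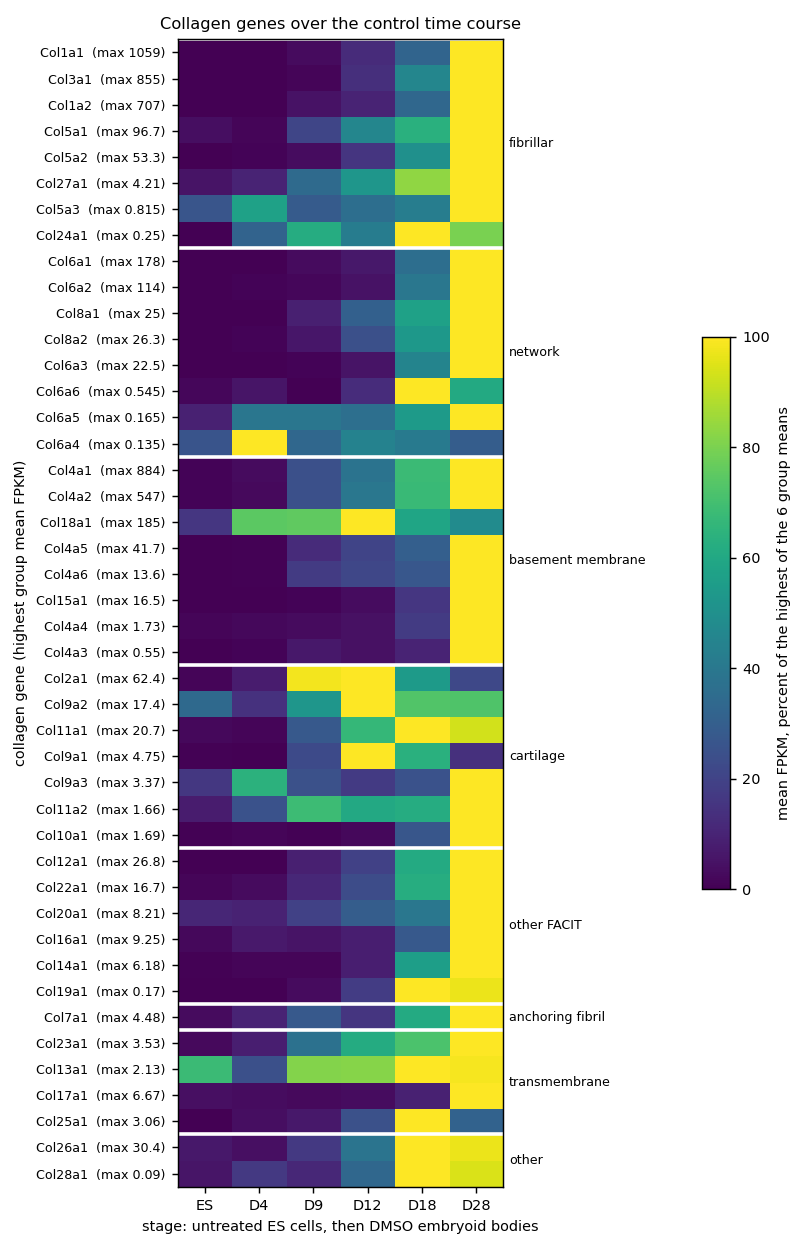
Each row is a collagen gene, grouped by class, and each column a stage of the control time course. Colour gives the mean FPKM of 2 libraries as a percent of the gene's highest group mean, which is printed beside the symbol in FPKM. Col2a1, Col9a1, Col9a2 and Col18a1 were highest at D12, and most fibrillar, network and type IV genes at D28.

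The fibrillar collagens were close to silent in ES cells and at D4 and ranked among the most abundant collagens at D28. Col1a1, a chain of type I collagen and the main protein of bone and skin, had 1.06 and 0.82 FPKM in ES cells, 0.89 and 0.88 at D4, 29.6 and 30.9 at D9, 135 and 125 at D12, 327 and 351 at D18 and 1042 and 1075 at D28. Col1a2, its partner chain, had 0.39 and 0.17 FPKM in ES cells, 1.09 and 0.83 at D4, 32.6 and 34.7 at D9, 70.9 and 68.8 at D12, 233 and 238 at D18 and 700.0 and 715 at D28. Col3a1, the chain of type III collagen of elastic connective tissue, had 0.51 and 0.21 FPKM in ES cells, 0.37 and 0.19 at D4, 11.9 and 11.8 at D9, 116 and 112 at D12, 379 and 406 at D18 and 842 and 868 at D28. All 3 increased at every step from D4 to D28, and the paired libraries were close to each other beside the distance between days. Col5a1, a chain of type V collagen that sets fibril diameter, differed in that it was present in ES cells and fell at D4, with 4.41 and 3.14 FPKM in ES cells, 1.34 and 1.28 at D4, 20.8 and 19.8 at D9, 45.8 and 43.2 at D12, 60.2 and 62.7 at D18 and 95.3 and 98.2 at D28. Its log2 change at D4 against ES cells was -1.57 ± 0.13 (SE), adjusted p = 2.46e-07. Col5a2, another chain of type V, reached 52.3 and 54.2 FPKM at D28, against 0.24 and 0.14 FPKM in ES cells. The ratio of Col5a1 to Col5a2 in FPKM was 1.81 and 1.82 at D28, 12.1 and 11.1 at D9 and 18.4 and 22.4 in ES cells. Col27a1 reached 4.29 FPKM at most, and Col5a3 and Col24a1 stayed under 1 FPKM in every library.

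Most network collagens were low until D9 and highest at D28. Col6a1, a chain of the microfibrillar type VI collagen of muscle and connective tissue, had 0.11 and 0.03 FPKM in ES cells, 0.51 and 0.54 at D4, 5.45 and 4.84 at D9, 12.1 and 11.4 at D12, 63.95 and 65.2 at D18 and 178 and 179 at D28. Col6a2, its partner chain encoded beside it on chromosome 10, had 0.14 and 0.04 FPKM in ES cells, 1.11 and 1.42 at D4, 1.65 and 1.98 at D9, 5.97 and 5.36 at D12, 45.9 and 44.5 at D18 and 116 and 112 at D28. Both rose at every step, and at D18 the log2 changes against D12 were 2.42 ± 0.08 for Col6a1 and 2.95 ± 0.09 for Col6a2 (SE; adjusted p = 6.26e-11 and 5.28e-11). Col8a1, a chain of the short-chain type VIII collagen of endothelial and corneal membranes, had 0.02 and 0.02 FPKM in ES cells, 0.03 and 0.06 at D4, 2.32 and 2.06 at D9, 7.54 and 7.74 at D12, 13.9 and 14.7 at D18 and 24.8 and 25.1 at D28. Col8a2, the other type VIII chain, had 0.02 and 0.01 FPKM in ES cells, 0.28 and 0.21 at D4, 1.56 and 1.7 at D9, 6.72 and 6.1 at D12, 14.03 and 14 at D18 and 26.1 and 26.4 at D28 and thus stayed close to Col8a1 from D12 on. Col6a3 had a mean above 1 FPKM from D12 on and had 21.9 and 23.2 FPKM at D28. Col6a4, Col6a5 and Col6a6 remained under 1 FPKM in all 22 libraries.

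The basement membrane collagens were the most abundant class up to D18, and the fibrillar ones at D28. Col4a1, whose product pairs with that of Col4a2 in the type IV sheet of nearly all basement membranes, had 7.08 and 7.32 FPKM in ES cells, 24.1 and 27.9 at D4, 214 and 217 at D9, 345 and 329 at D12, 591 and 614 at D18 and 878 and 889 at D28. Col4a2 had 3.97 and 5.44 FPKM in ES cells, 13.8 and 14.8 at D4, 133 and 134 at D9, 222 and 211 at D12, 366 and 375 at D18 and 545 and 549.7 at D28. The ratio of Col4a1 to Col4a2 in FPKM lay between 1.35 and 1.88 over all 22 libraries and between 1.43 and 1.66 from D9 on, while the level of both genes was far higher at D28 than in ES cells. Col18a1, whose product carries the endostatin fragment at its end, was the most abundant collagen in ES cells and at D4 and peaked at D12, with 38.8 and 19.6 FPKM in ES cells, 133 and 144 at D4, 141 and 139 at D9, 190.2 and 179.9 at D12, 108 and 109 at D18 and 89.1 and 89.5 at D28. The log2 change of Col18a1 at D18 against D12 was -0.80 ± 0.24 (SE; adjusted p = 0.0334), opposite in sign to that of the type IV pair, 0.80 for Col4a1 and 0.74 for Col4a2. Col4a5, a chain of the specialised type IV network of kidney and skin, had 0.04 and 0.01 FPKM in ES cells, 0.21 and 0.24 at D4, 5.06 and 5.17 at D9, 8.86 and 8.12 at D12, 12.6 and 12.6 at D18 and 40.96 and 42.4 at D28. Col4a6, its neighbour on the X chromosome, followed at 2.51 and 2.18 FPKM at D9 and 13.4 and 13.9 FPKM at D28. Col15a1, Col4a3 and Col4a4 were late. Col15a1 had 16.7 and 16.3 FPKM at D28, against 2.28 and 2.88 at D18, and Col4a4 had 1.72 and 1.73 FPKM at D28, against 0.29 and 0.31 at D18. Col4a3 and Col4a4 lie beside each other on chromosome 1 with overlapping annotation, as Col4a1 and Col4a2 do on chromosome 8, and no source used here says whether strand was used in counting, so reads in the overlaps are uncertain.

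The genes of Col4a1 and Col4a2 face away from each other, and a CCAAT box (CCAAT or ATTGG) stands before the start of each. The 30-base stretches around these boxes are shown because the pair moved together in all 22 libraries (RefSeq starts, build GRCm38.p6, with the box in capitals). The Col4a1 stretch is at chr8:11312954-11312983 on the minus strand, its box starting at base -145 from the gene's start, and that of Col4a2 is at chr8:11312761-11312790 on the plus strand, with the box at base -32.
Col4a1: tgcttgcccgggATTGGcgagccaaggggc
Col4a2: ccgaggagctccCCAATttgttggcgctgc
Both stretches lie in sequence that the annotation also gives to exons. A CCAAT box in either orientation was found in 33.85% of the 32851 promoter windows of the same length.

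The cartilage collagens did not follow 1 course. Col2a1, the main fibril of cartilage and also made early in notochord and neural tissue, had 0.96 and 0.6 FPKM in ES cells, 4.67 and 4.75 at D4, 60.8 and 61.5 at D9, 64.8 and 60 at D12, 33.2 and 34.9 at D18 and 13.5 and 13.7 at D28. It was highest at D9 and D12 and fell at D18 and again at D28, with log2 changes of -0.92 ± 0.08 against D12 and -1.36 ± 0.08 against D18 (SE; adjusted p = 6.16e-07 and 1.24e-08). Col9a1, a chain of the type IX collagen that coats cartilage fibrils, was also highest at D12, with 0.06 and 0 FPKM in ES cells, 0.02 and 0 at D4, 1.08 and 1.06 at D9, 4.93 and 4.58 at D12, 3.09 and 2.96 at D18 and 0.69 and 0.62 at D28. Col9a2, another type IX chain, was already present in ES cells and had 6.38 and 5.52 FPKM in ES cells, 2.35 and 2.61 at D4, 8.84 and 9.42 at D9, 17.96 and 16.8 at D12, 13.04 and 12.3 at D18 and 12.3 and 12.8 at D28. Col11a1, a chain of type XI collagen that nucleates cartilage fibrils and is also made outside cartilage, had 0.55 and 0.31 FPKM in ES cells, 0.25 and 0.35 at D4, 6.1 and 5.43 at D9, 13.6 and 13.9 at D12, 20.3 and 21.1 at D18 and 19.8 and 18.8 at D28. At D28 it was thus above Col2a1, which had been far above it at D9 and D12. Col10a1, the collagen of hypertrophic cartilage, was above 1 FPKM only at D28, with 1.64 and 1.74 FPKM. The 7 chondrocyte markers listed (Acan, Matn1, Matn3, Matn4, Hapln1, Comp and Chad) summed to 1.93 to 5.11 FPKM over the 22 libraries, and Cnmd was in no table. The values of that sum at D12, 4.73 and 4.08 FPKM, overlapped those at D4, 5.11 and 4.29 FPKM. Its members differed. Hapln1 had 0 and 0 FPKM at D4, 1.57 and 1.42 at D12 and 0.23 and 0.15 at D28. Matn3 had 2.63 and 2.34 FPKM at D4 and 1.1 and 1.16 at D12. The part of chondrocytes in the course of Col2a1 was not tested.

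The remaining collagens were mostly late. Col12a1, a FACIT collagen of tendon and dense tissue, had 0.04 and 0.01 FPKM in ES cells, 0.03 and 0.04 at D4, 2.45 and 2.2 at D9, 5.31 and 5.03 at D12, 16.9 and 15.8 at D18 and 26.9 and 26.6 at D28. Col22a1, a FACIT collagen of tissue junctions such as that of muscle and tendon, had 0.25 and 0.2 FPKM in ES cells, 0.52 and 0.45 at D4, 1.88 and 1.79 at D9, 3.83 and 3.94 at D12, 10.2 and 10.6 at D18 and 16.98 and 16.3 at D28. Both rose in steps up to D28. Col20a1, a less studied FACIT gene, had 0.83 and 0.93 FPKM in ES cells, 0.77 and 0.83 at D4, 1.68 and 1.48 at D9, 2.5 and 2.32 at D12, 3.22 and 3.28 at D18 and 8.28 and 8.13 at D28. Col16a1, made by many fibroblasts and smooth muscle cells, had 0.2 and 0.2 FPKM in ES cells, 0.68 and 0.62 at D4, 0.54 and 0.46 at D9, 0.69 and 0.85 at D12, 2.32 and 2.82 at D18 and 8.74 and 9.77 at D28, and most of its rise thus came after D12. Col14a1, which binds fibrils in skin and tendon, had 6.37 and 5.98 FPKM at D28 and at most 0.09 FPKM in ES cells and in DMSO EBs at D4 and D9. Col7a1, the anchoring fibril gene, had 0.16 and 0.11 FPKM in ES cells, 0.4 and 0.5 at D4, 1.21 and 1.31 at D9, 0.74 and 0.65 at D12, 2.72 and 2.77 at D18 and 4.72 and 4.25 at D28. It was the only member that passed as lower at D12 against D9, by 0.92 on the log2 scale (adjusted p = 0.000166), and it rose again at D18. Among the transmembrane collagens, Col17a1, part of the hemidesmosomes that attach basal epithelial cells, had 0.29 and 0.24 FPKM in ES cells, 0.22 and 0.21 at D4, 0.19 and 0.17 at D9, 0.28 and 0.18 at D12, 0.61 and 0.63 at D18 and 6.5 and 6.84 at D28. The 6 basal epithelium markers (Krt5, Krt14, Krt15, Trp63, Itga6 and Itgb4) summed to 468 and 481 FPKM at D28, against 94.8 and 92.2 FPKM at D18. Col25a1, a transmembrane collagen of neurons and muscle, peaked at D18, with 0.02 and 0 FPKM in ES cells, 0.13 and 0.09 at D4, 0.18 and 0.21 at D9, 0.75 and 0.76 at D12, 3.19 and 2.94 at D18 and 0.93 and 1 at D28. Neuron markers (Tubb3, Dcx, Map2, Elavl3 and Mapt) peaked at the same stage, with a sum of 224 and 232 FPKM at D18 and 36.03 and 33.2 FPKM at D28. Their part in the course of Col25a1 was not tested. Col13a1, a transmembrane collagen of the neuromuscular junction, had 1.36 and 1.55 FPKM in ES cells, 0.5 and 0.54 at D4, 1.74 and 1.73 at D9, 1.62 and 1.86 at D12, 2.11 and 2.15 at D18 and 2.27 and 1.93 at D28. It was the one transmembrane gene that did not pass at D28 against ES cells. Col23a1 had 0.13 and 0.06 FPKM in ES cells, 0.31 and 0.29 at D4, 1.41 and 1.22 at D9, 2.36 and 1.98 at D12, 2.54 and 2.52 at D18 and 3.43 and 3.62 at D28. Col26a1, a collagen outside the main classes, had 2.06 and 1.84 FPKM in ES cells, 1.2 and 1.21 at D4, 5.01 and 4.98 at D9, 12.2 and 11.04 at D12, 28.8 and 31.9 at D18 and 30.1 and 28.8 at D28.

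In all, 8 members never exceeded 1 FPKM. Their highest values were 0.85 FPKM for Col5a3, 0.60 for Col6a6, 0.59 for Col4a3, 0.27 for Col24a1, 0.19 for Col19a1, 0.17 for Col6a5, 0.15 for Col6a4 and 0.11 for Col28a1. Col4a3, Col24a1 and Col19a1 were listed in neither ES library, Col19a1 in neither DMSO library of D4 and Col6a6 in neither DMSO library of D9, so no fold change is given against those groups.

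Step by step, more members rose than fell in each comparison of neighbouring stages. At D4 against ES cells 24 members were higher and 4 lower, where 62.3% of all genes passed (31.9% higher and 30.3% lower). Those with the largest fitted rise were Col6a2, Col4a5, Col6a1, Col2a1, Col18a1, Col6a4, Col9a3, Col16a1, Col4a1, Col6a5, Col23a1, Col6a3, Col11a2, Col1a2 and Col7a1, and Col5a1, Col13a1, Col9a2 and Col26a1 fell. Col24a1, Col25a1, Col4a6 and Col8a2 also passed but had at most 3 counts over both ES libraries, so they are not ranked. At D9 against D4, 29 were higher and 5 lower, where 60.8% of all genes passed (31.9% higher and 28.9% lower). The rise was led by Col12a1, Col8a1, Col3a1, Col4a6, Col1a2, Col1a1, Col4a5, Col11a1, Col5a1, Col2a1, Col6a1, Col4a2, Col4a1, Col8a2 and Col15a1, with Col4a3 and Col9a1 left unranked because the D4 libraries held at most 3 counts. Those that fell, Col6a4, Col9a3, Col5a3, Col16a1 and Col6a6, were all at or under 2.44 FPKM at both stages. Col6a6 rested on few counts, with 5 and 1 at D4 and 0 and 0 at D9. At D12 against D9, 26 were higher and 1 lower, where 33.1% of all genes passed (17.5% higher and 15.6% lower), with Col3a1, Col14a1, Col6a3, Col5a2, Col9a1, Col1a1, Col8a2, Col25a1, Col8a1, Col15a1, Col6a2, Col11a1, Col26a1, Col6a1 and Col12a1 in the lead and Col6a6 unranked for the same reason at D9. At D18 against D12, 31 were higher and 4 lower, where 37.7% of all genes passed (20.7% higher and 17.1% lower). Here Col10a1, Col6a3, Col6a2, Col6a6, Col14a1, Col19a1, Col6a1, Col15a1, Col25a1, Col4a4, Col7a1, Col3a1, Col1a2, Col16a1 and Col5a2 rose most, while Col2a1, Col18a1, Col9a1 and Col9a2 fell. At D28 against D18, 30 were higher and 4 lower, where 53.0% of all genes passed (24.9% higher and 28.1% lower). That step was led by Col17a1, Col4a3, Col15a1, Col4a4, Col9a3, Col10a1, Col4a6, Col16a1, Col4a5, Col1a1, Col1a2, Col6a1, Col6a2, Col5a3 and Col6a3, and Col9a1, Col25a1, Col2a1 and Col6a6 fell. The 15 with the largest log2 change at D28 against ES cells, among members with more than 3 counts over both ES libraries, were Col6a1, Col1a2, Col3a1, Col4a5, Col6a2, Col8a1, Col1a1, Col6a3, Col12a1, Col5a2, Col14a1, Col4a1, Col4a2, Col22a1 and Col4a4. The unranked ones that passed were Col10a1, Col15a1, Col19a1, Col24a1, Col25a1, Col4a3, Col4a6, Col6a6, Col8a2 and Col9a1. With library size alone in place of TMM scaling, 6311 of all genes were higher and 3459 lower at D9 against D4, where TMM gave 5170 and 4679, and 3409 were higher and 1786 lower at D12 against D9, where TMM gave 2828 and 2533. Library size alone also moved the median log2 change of all genes to 0.15 at D9 against D4 and to 0.43 at D28 against ES cells, where TMM gave 0.01 and 0.13.

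**Figure D2:**
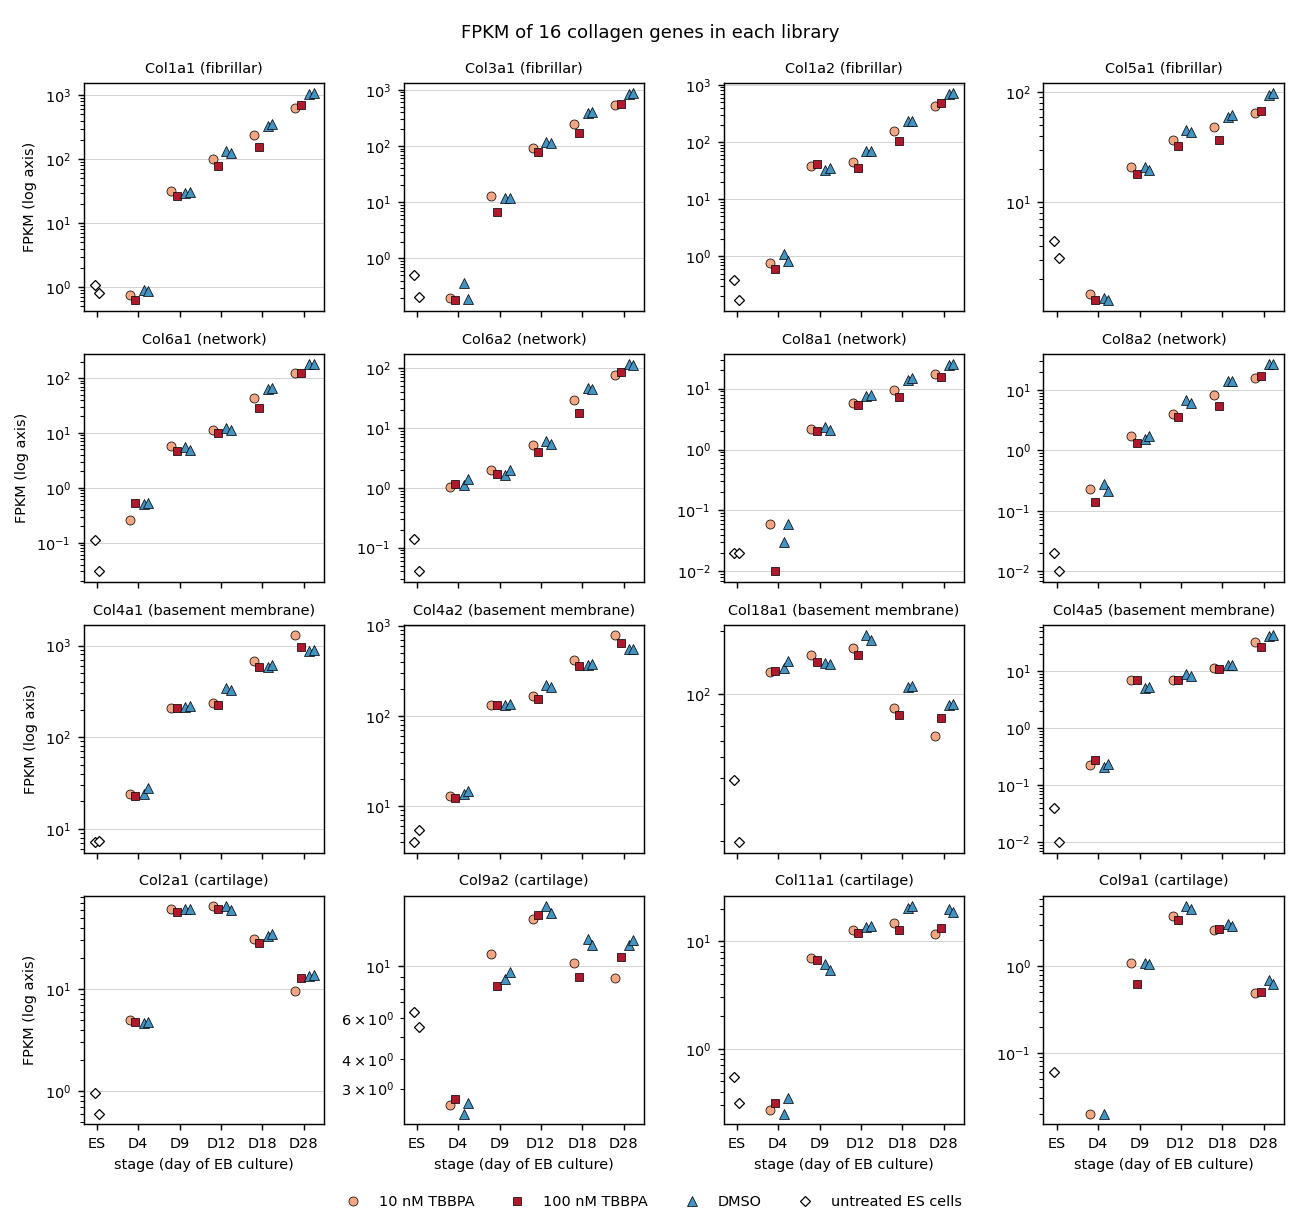
FPKM on a log axis in each library, for the 4 most abundant members of 4 classes, by stage. Circles and squares are the 10 nM and 100 nM TBBPA libraries, triangles the DMSO libraries and diamonds the untreated ES libraries, and libraries at 0 FPKM (Col9a1) are not drawn. At D18 the circle and square lie under both triangles for the 8 fibrillar and network genes, and at D28 they lie above them for Col4a1 and Col4a2.

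TBBPA-exposed EBs differed little from DMSO EBs in collagen expression at D4 and D9 and had less of most collagens at D18 and D28. On each day the library at 10 nM and that at 100 nM formed the TBBPA pair, which was tested against the DMSO pair in 1 fit of all 22 libraries. At D4, 0 of 43 members passed, where 0.458% of all genes did (0.0855% higher and 0.372% lower), 6 members had an unadjusted p under 0.05, and DESeq2 called 1. At D9 only Col4a5 passed, where 2.34% of all genes did (1.37% higher and 0.964% lower), with 7.02 and 7.06 FPKM with TBBPA, against 5.06 and 5.17 FPKM with DMSO (log2 change 0.47 ± 0.09 SE, adjusted p = 0.00468). At D12, 3 members were higher and 8 lower, where 21.1% of all genes passed (11.9% higher and 9.19% lower). At D18, 0 were higher and 20 lower, where 10.5% of all genes passed (5.96% higher and 4.56% lower). At D28, 2 were higher and 17 lower, where 7.09% of all genes passed (3.65% higher and 3.44% lower). The median log2 change of the 43 tested members was -0.49 at D18 and -0.49 at D28, beside medians of 0.02 and 0.01 over all genes. With library size alone in place of TMM, 432 of all genes were higher and 688 lower at D28, where TMM gave 598 and 564.

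These counts depended on the few libraries. With each DMSO pair summed into 1 library, 0 members passed at D9, 1 at D12 (Col4a1), 4 at D18 (Col5a2, Col8a1, Col8a2 and Col15a1) and 0 at D28. At D9, 0 passed without either DMSO library, and at D4, 1 passed without the 10 nM library. With a library left out, the count at D12 was 6 and 5 without DMSO replicates 1 and 2 and 3 without the 100 nM library. At D18 it was 13 without either DMSO replicate and 12 without the 100 nM library. At D28 it was 12 without the 10 nM library, 11 without the 100 nM library, and 9 and 7 without DMSO replicates 1 and 2. Both TBBPA libraries were under both DMSO libraries in FPKM for 36 of 44 members at D18, where 23.1% of all genes did so, and for 36 at D28, where 25.9% did. The same held for 14 members at D4 (19.5% of all genes), 8 at D9 (20.7%) and 24 at D12 (26.9%). Both lay above both DMSO libraries for 3 members at D4 (17.4%), 10 at D9 (19.4%), 4 at D12 (27.8%), 1 at D18 (23.4%) and 3 at D28 (20.3%).

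**Figure D3:**
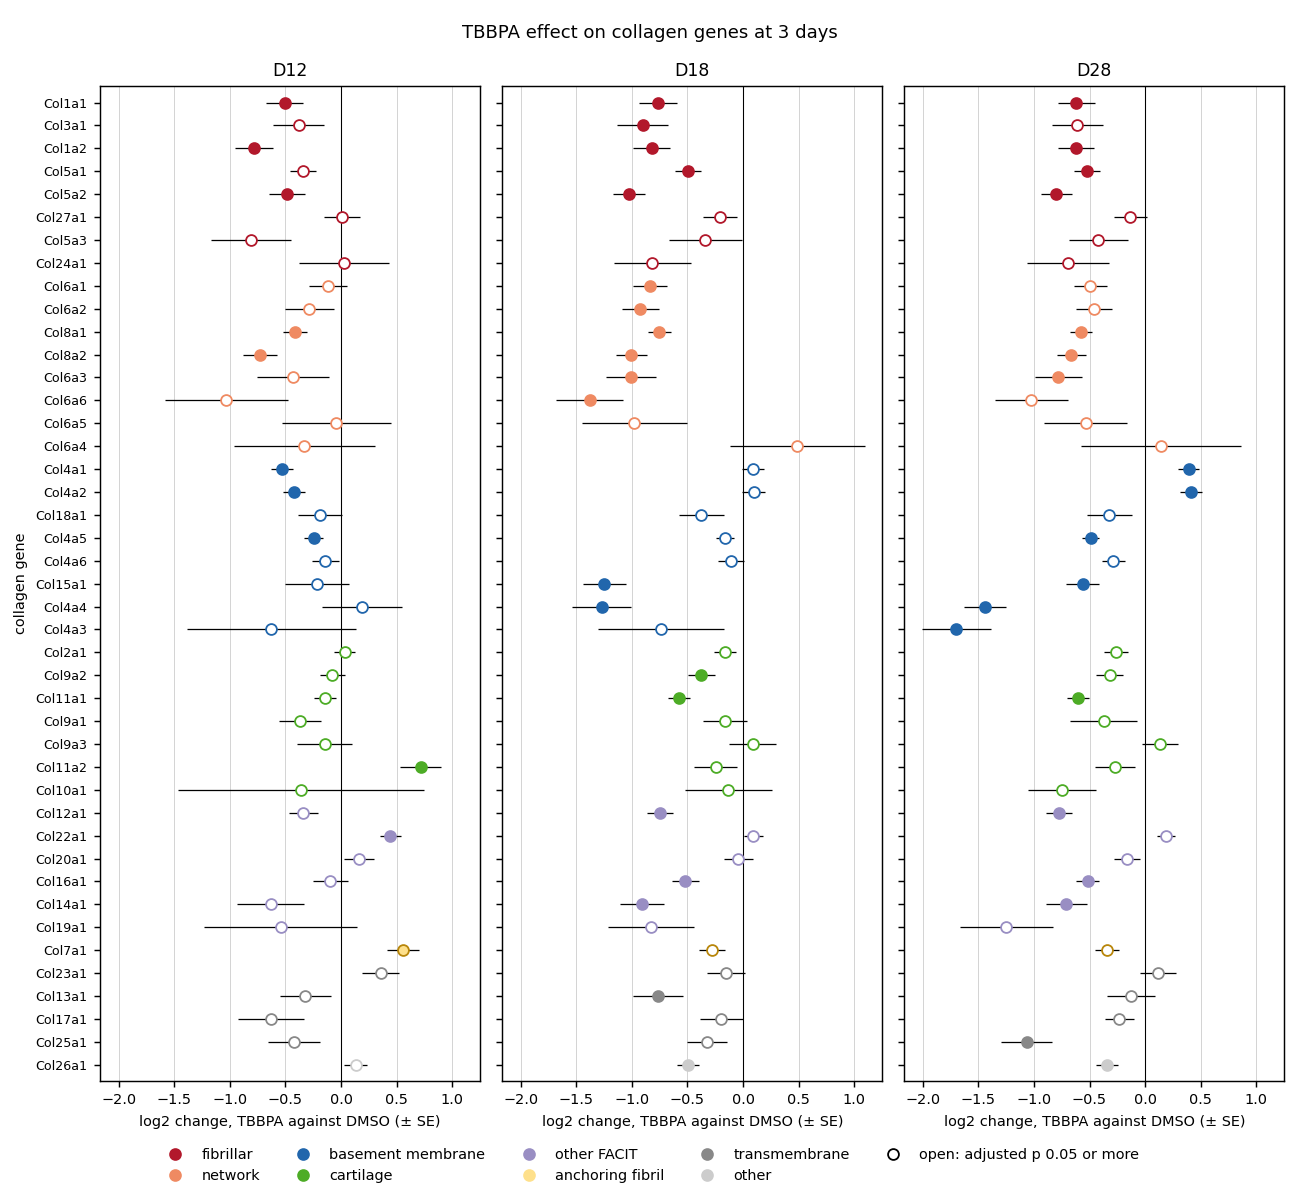
The log2 change of TBBPA against DMSO with its SE (bars) for the 43 tested members at D12, D18 and D28, coloured by class. Filled points passed an adjusted p of 0.05 and open ones did not. At D18 the filled points all lie left of 0, and at D28 Col4a1 and Col4a2 are the filled points right of 0.

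Fibrillar collagens fell with TBBPA at D12, D18 and D28. Of 8 members, 3 fell at D12, 5 at D18 and 4 at D28, and none rose on those days. Of all genes, 21.1, 10.5 and 7.09% passed on them (9.19, 4.56 and 3.44% lower). Col1a1 had 238 and 155 FPKM with TBBPA, against 327 and 351 FPKM with DMSO at D18, and 634 and 715 FPKM with TBBPA, against 1042 and 1075 FPKM with DMSO at D28. Its log2 change was -0.51 ± 0.17 at D12, -0.77 ± 0.17 at D18 and -0.62 ± 0.17 at D28 (SE; adjusted p = 0.0474, 0.00903 and 0.0401). All 4 TBBPA values of Col1a1 at these 2 days lay under the DMSO values of the same day, and the 100 nM library was the lower of the pair at D18 and the higher at D28. Col1a2 had 44.2 and 35.5 FPKM with TBBPA, against 70.9 and 68.8 FPKM with DMSO at D12, 158 and 104 FPKM with TBBPA, against 233 and 238 FPKM with DMSO at D18, and 425 and 473 FPKM with TBBPA, against 700.0 and 715 FPKM with DMSO at D28. Its log2 changes were -0.78, -0.82 and -0.63 at D12, D18 and D28 (adjusted p = 0.0047, 0.00499 and 0.0343). At D9 the sign was the other way, with 38.7 and 41.2 FPKM with TBBPA, against 32.6 and 34.7 FPKM with DMSO, which did not pass (log2 change 0.25, adjusted p = 0.609). Col3a1 had 244 and 171 FPKM with TBBPA, against 379 and 406 FPKM with DMSO at D18 (log2 change -0.90 ± 0.23 SE, adjusted p = 0.026). At D28 it had 543 and 556 FPKM with TBBPA, against 842 and 868 FPKM with DMSO, where the groups did not overlap but the test did not pass (log2 change -0.61, adjusted p = 0.143). The ratio of Col1a1 to Col1a2 in FPKM was 0.83 and 0.64 with TBBPA, against 0.91 and 0.89 with DMSO at D9, and 2.297 and 2.196 with TBBPA, against 1.91 and 1.81 with DMSO at D12. It was 1.5 and 1.49 with TBBPA, against 1.404 and 1.48 with DMSO at D18, and 1.49 and 1.51 with TBBPA, against 1.49 and 1.505 with DMSO at D28. It was lower with TBBPA at D9 and higher with TBBPA at D12 and D18, each without overlap, and the groups overlapped at D28.

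Of the type V genes, Col5a1 and Col5a2 fell as well. Col5a2 had 15.9 and 10.01 FPKM with TBBPA, against 26.2 and 27.4 FPKM with DMSO at D18, and 29.99 and 30.04 FPKM with TBBPA, against 52.3 and 54.2 FPKM with DMSO at D28. Its log2 change was -1.02 ± 0.15 at D18 and -0.80 ± 0.14 at D28 (SE; adjusted p = 0.00034 and 0.00367), after -0.48 at D12 (adjusted p = 0.0455). At D9 it was the other way round, with 2.72 and 2.79 FPKM with TBBPA, against 1.73 and 1.78 FPKM with DMSO (log2 change 0.65, adjusted p = 0.139), and the test of a difference between the days passed (adjusted p = 0.00445). Col5a1 had 48.7 and 37.2 FPKM with TBBPA, against 60.2 and 62.7 FPKM with DMSO at D18, and 64.3 and 67.8 FPKM with TBBPA, against 95.3 and 98.2 FPKM with DMSO at D28. The log2 changes of Col5a1 were -0.49 ± 0.12 and -0.52 ± 0.12 (SE; adjusted p = 0.0133 and 0.0147), smaller in size than those of Col5a2 at both days. Col27a1, Col5a3 and Col24a1 did not pass on any day.

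Network collagens fell as well, most of them at D18. Of 8 members, 2 fell at D12, 6 at D18 and 3 at D28. Of all genes, 21.1, 10.5 and 7.09% passed on these days (9.19, 4.56 and 3.44% lower). Col6a1 had 42.6 and 28.5 FPKM with TBBPA, against 63.95 and 65.2 FPKM with DMSO at D18, and 122 and 126 FPKM with TBBPA, against 178 and 179 FPKM with DMSO at D28, so that the groups did not overlap on either day. Its log2 change was -0.84 ± 0.15 at D18 and -0.49 ± 0.15 at D28 (SE; adjusted p = 0.00234 and 0.0586). Col6a2 had 29.2 and 17.9 FPKM with TBBPA, against 45.9 and 44.5 FPKM with DMSO at D18 (log2 change -0.92 ± 0.17 SE, adjusted p = 0.00295) and did not pass at D28 (log2 change -0.46, adjusted p = 0.114). Col6a3, the longest chain of type VI, had 6.49 and 3.48 FPKM with TBBPA, against 10.2 and 10.2 FPKM with DMSO at D18, and 13.2 and 12.6 FPKM with TBBPA, against 21.9 and 23.2 FPKM with DMSO at D28. It passed on both days, with log2 changes of -1.01 ± 0.23 and -0.78 ± 0.21 (SE; adjusted p = 0.0117 and 0.0451). The ratio of Col6a1 to Col6a2 in FPKM was 2.22 and 2.47 with TBBPA, against 2.02 and 2.12 with DMSO at D12, and 1.597 and 1.46 with TBBPA, against 1.53 and 1.59 with DMSO at D28, so the groups stood apart at D12 and overlapped at D28.

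Col8a1 and Col8a2 fell at D12, D18 and D28. Col8a1 had 5.88 and 5.39 FPKM with TBBPA, against 7.54 and 7.74 FPKM with DMSO at D12, 9.42 and 7.3 FPKM with TBBPA, against 13.9 and 14.7 FPKM with DMSO at D18, and 17.2 and 15.5 FPKM with TBBPA, against 24.8 and 25.1 FPKM with DMSO at D28. Its log2 changes were -0.41 ± 0.11, -0.75 ± 0.10 and -0.58 ± 0.10 on these days (SE; adjusted p = 0.0105, 5.47e-05 and 0.00122). Col8a2 had 4.05 and 3.53 FPKM with TBBPA, against 6.72 and 6.1 FPKM with DMSO at D12, 8.33 and 5.41 FPKM with TBBPA, against 14.03 and 14 FPKM with DMSO at D18, and 15.4 and 17.2 FPKM with TBBPA, against 26.1 and 26.4 FPKM with DMSO at D28. The log2 changes of Col8a2 were -0.73 ± 0.15, -1.01 ± 0.14 and -0.66 ± 0.13 (SE; adjusted p = 0.00199, 8.96e-05 and 0.00395). Col6a6, a minor type VI chain, also fell at D18, with 0.21 and 0.22 FPKM with TBBPA, against 0.6 and 0.49 FPKM with DMSO (log2 change -1.38, adjusted p = 0.00406).

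The 250 bases before the RefSeq starts of Col3a1, Col8a1 and Col11a1 are shown because these genes, of the fibrillar, network and cartilage classes, fell together at D18 and none of the bases is in an annotated exon. Capitals mark a TATA box (TATAAA or TTTATA), a GC box (GGGCGG or CCGCCC) or a CCAAT box (CCAAT or ATTGG). Coordinates are of GRCm38.p6, chr1:45311288-45311537 on the plus strand for Col3a1, chr16:57754738-57754987 on the minus strand for Col8a1 and chr3:114030290-114030539 on the plus strand for Col11a1.
Col3a1: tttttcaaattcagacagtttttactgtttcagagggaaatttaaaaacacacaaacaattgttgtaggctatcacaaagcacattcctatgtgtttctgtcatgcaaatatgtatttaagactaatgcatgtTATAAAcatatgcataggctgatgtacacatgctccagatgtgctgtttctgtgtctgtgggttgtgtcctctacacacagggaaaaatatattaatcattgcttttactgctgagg
Col8a1: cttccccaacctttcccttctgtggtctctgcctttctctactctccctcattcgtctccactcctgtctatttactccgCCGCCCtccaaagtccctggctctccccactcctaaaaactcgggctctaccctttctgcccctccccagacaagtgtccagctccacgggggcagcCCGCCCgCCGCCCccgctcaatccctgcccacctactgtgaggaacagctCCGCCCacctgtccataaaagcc
Col11a1: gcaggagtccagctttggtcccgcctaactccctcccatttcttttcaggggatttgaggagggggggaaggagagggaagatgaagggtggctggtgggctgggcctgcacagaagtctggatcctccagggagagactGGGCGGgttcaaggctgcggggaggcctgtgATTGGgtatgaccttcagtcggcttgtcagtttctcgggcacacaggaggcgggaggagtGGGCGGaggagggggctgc
The Col3a1 stretch has 35.2% G and C and a TATA match at base -117, that of Col8a1 has 60.8% and 4 GC boxes, and that of Col11a1 has 62.4%, 2 GC boxes and a CCAAT box at base -79. No motif was common to all 3 stretches. Over the 38 windows found for 35 of the 44 members, 22 held a GC box, 13 a CCAAT box and 5 a TATA box, where 32.74, 33.85 and 12.37% of all 32851 windows of that length did. The windows of a gene with several starts were counted separately, and no test was made of these shares.

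Basement membrane collagens divided, and the abundant type IV pair moved against the rest at D28. Col4a1 had 234 and 223 FPKM with TBBPA, against 345 and 329 FPKM with DMSO at D12, 680.0 and 584 FPKM with TBBPA, against 591 and 614 FPKM with DMSO at D18, and 1296 and 975 FPKM with TBBPA, against 878 and 889 FPKM with DMSO at D28. Its log2 change was -0.53 ± 0.10 at D12, 0.09 ± 0.10 at D18 and 0.39 ± 0.10 at D28 (SE; adjusted p = 0.000609, 0.662 and 0.0184). Col4a1 was therefore under DMSO at D12, overlapped it at D18 and was over it at D28. Col4a2 had 164 and 153 FPKM with TBBPA, against 222 and 211 FPKM with DMSO at D12, 420.2 and 359.6 FPKM with TBBPA, against 366 and 375 FPKM with DMSO at D18, and 781 and 646 FPKM with TBBPA, against 545 and 549.7 FPKM with DMSO at D28. The log2 changes of Col4a2 were -0.42 ± 0.10, 0.09 ± 0.10 and 0.41 ± 0.10 (SE; adjusted p = 0.0054, 0.655 and 0.0165). The test of a difference between the days gave an adjusted p of 0.00212 for Col4a1 and 0.0061 for Col4a2. The D28 rise was larger in the 10 nM library, and without that library the log2 change was 0.17 for Col4a1 and 0.27 for Col4a2, and neither passed (adjusted p = 0.26 and 0.149). Neither passed without either DMSO library, and both passed without the 100 nM library.

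Of the other type IV chains, Col4a3, Col4a4 and Col4a5 fell at D28. Col4a3 had 0.19 and 0.14 FPKM with TBBPA, against 0.59 and 0.51 FPKM with DMSO (log2 change -1.70 ± 0.31 SE, adjusted p = 0.00242). Col4a4 had 0.72 and 0.52 FPKM with TBBPA, against 1.72 and 1.73 FPKM with DMSO (log2 change -1.44 ± 0.19 SE, adjusted p = 9.44e-05), and at D18 0.12 and 0.1 FPKM with TBBPA, against 0.29 and 0.31 FPKM with DMSO (log2 change -1.27, adjusted p = 0.00267). These 2 neighbours had the largest falls of all members at D28, at low levels. Col4a5 changed direction over time. It was higher at D9, as above, and lower at D12, with 6.89 and 7.09 FPKM with TBBPA, against 8.86 and 8.12 FPKM with DMSO (log2 change -0.25, adjusted p = 0.0428). At D28 it had 31.8 and 26.4 FPKM with TBBPA, against 40.96 and 42.4 FPKM with DMSO (log2 change -0.49 ± 0.08 SE, adjusted p = 0.000546). The test of a difference between the days gave Col4a5 the smallest adjusted p of the members, 0.000234. Col4a6, beside it on the X chromosome, had 3.19 and 3.14 FPKM with TBBPA, against 2.51 and 2.18 FPKM with DMSO at D9 and 11.6 and 10.4 FPKM with TBBPA, against 13.4 and 13.9 FPKM with DMSO at D28, the same order as for Col4a5 on both days, and passed on neither (adjusted p = 0.0561 and 0.0954).

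Col15a1, a collagen of vessel and muscle basement membranes, had 1.32 and 0.82 FPKM with TBBPA, against 2.28 and 2.88 FPKM with DMSO at D18, and 12.01 and 9.99 FPKM with TBBPA, against 16.7 and 16.3 FPKM with DMSO at D28. It fell on both days, with log2 changes of -1.25 ± 0.20 and -0.56 ± 0.15 (SE; adjusted p = 0.000287 and 0.0255). Col18a1 had 85.5 and 79.5 FPKM with TBBPA, against 108.5 and 109 FPKM with DMSO at D18. At D28 it had 63.3 and 76.8 FPKM with TBBPA, against 89.1 and 89.5 FPKM with DMSO. The groups did not overlap on these 2 days, and Col18a1 did not pass on any day (adjusted p at D28 = 0.412). The fit took its spread over all 22 libraries, among them the ES pair, at 38.8 and 19.6 FPKM. The part of that pair in the missed threshold was not tested. Of 8 basement membrane members, then, 1 passed at D9 (higher), 3 at D12 (lower), 2 at D18 (lower) and 6 at D28 (2 higher and 4 lower). Of all genes, 2.34, 21.1, 10.5 and 7.09% passed on these days.

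**Figure D4:**
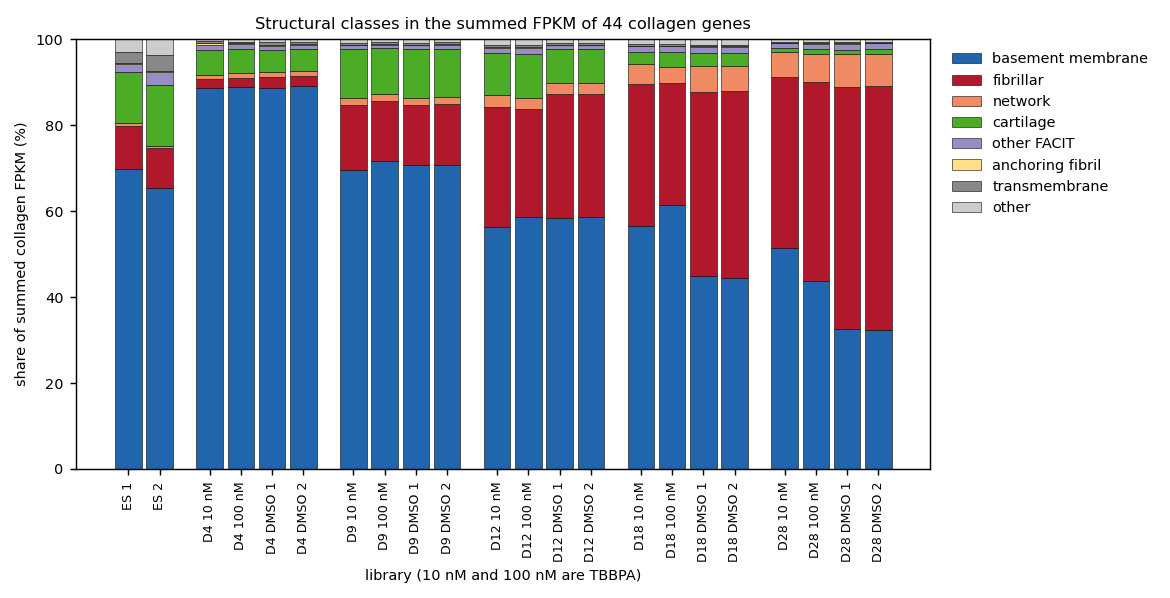
Share of the summed collagen FPKM held by each structural class, in percent, with 1 bar per library (10 nM and 100 nM are TBBPA). Basement membrane genes hold the largest part in every bar up to D18 and in the 10 nM bar of D28, and at D18 and D28 their part is larger in the TBBPA bars than in the DMSO bars of the day.

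With fibrillar genes lower and the type IV pair level or higher, the makeup of collagen RNA differed between the groups at the late stages. Basement membrane genes held 56.5 and 61.5% with TBBPA, against 45 and 44.5% with DMSO of the summed collagen FPKM at D18, and 51.5 and 43.8% with TBBPA, against 32.6 and 32.4% with DMSO at D28. Fibrillar genes held 33.2 and 28.5% with TBBPA, against 42.7 and 43.5% with DMSO at D18, and 39.9 and 46.4% with TBBPA, against 56.3 and 56.9% with DMSO at D28. At D12 these shares had been close, with basement membrane genes at 56.4 and 58.6% with TBBPA, against 58.5 and 58.6% with DMSO. The ratio of Col4a1 to Col1a1 in FPKM was 2.86 and 3.76 with TBBPA, against 1.81 and 1.75 with DMSO at D18, and 2.04 and 1.36 with TBBPA, against 0.84 and 0.83 with DMSO at D28. The TBBPA and DMSO libraries did not overlap in these shares and ratios at D18 or D28. With 2 libraries against 2, an exact permutation test of such a share cannot go below p = 0.333, so none was run.

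Some cartilage collagens passed with TBBPA. Of 7 members, 1 rose at D12, 2 fell at D18 and 1 fell at D28. Of all genes, 11.9% were higher at D12, and 4.56 and 3.44% were lower at D18 and D28. At D28, 6 of the 7 had both TBBPA libraries under both DMSO libraries in FPKM, where 25.9% of all genes did. Col11a1 had 14.7 and 12.8 FPKM with TBBPA, against 20.3 and 21.1 FPKM with DMSO at D18, and 11.7 and 13.2 FPKM with TBBPA, against 19.8 and 18.8 FPKM with DMSO at D28. Its log2 change was -0.58 ± 0.10 at D18 and -0.60 ± 0.10 at D28 (SE; adjusted p = 0.000472 and 0.000922), and its effect differed between the days (adjusted p = 0.00213). Col2a1, the most abundant of the class, had 64.8 and 60.99 FPKM with TBBPA, against 64.8 and 60 FPKM with DMSO at D12, 31.3 and 28.6 FPKM with TBBPA, against 33.2 and 34.9 FPKM with DMSO at D18, and 9.62 and 12.8 FPKM with TBBPA, against 13.5 and 13.7 FPKM with DMSO at D28. Its log2 changes were 0.04 ± 0.10, -0.16 ± 0.10 and -0.26 ± 0.11 (SE), and none passed (adjusted p = 0.839, 0.359 and 0.157). Col9a2 fell at D18, with 10.2 and 9.02 FPKM with TBBPA, against 13.04 and 12.3 FPKM with DMSO (log2 change -0.38 ± 0.12 SE, adjusted p = 0.0454). Col11a2, the other type XI chain, was higher at D12, with 1.5 and 1.78 FPKM with TBBPA, against 1.03 and 0.97 FPKM with DMSO (log2 change 0.72 ± 0.18 SE, adjusted p = 0.00742). Col10a1 had 1.28 and 0.69 FPKM with TBBPA, against 1.64 and 1.74 FPKM with DMSO at D28 and did not pass (adjusted p = 0.156). Col9a1 and Col9a3 passed on no day.

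Among the FACIT collagens, Col12a1 had 11.2 and 8.11 FPKM with TBBPA, against 16.9 and 15.8 FPKM with DMSO at D18, and 15.7 and 15.2 FPKM with TBBPA, against 26.9 and 26.6 FPKM with DMSO at D28. It fell on both days, with log2 changes of -0.75 ± 0.12 and -0.77 ± 0.12 (SE; adjusted p = 0.000472 and 0.000798). Col14a1 had 2.32 and 1.31 FPKM with TBBPA, against 3.64 and 3.27 FPKM with DMSO at D18, and 3.71 and 3.68 FPKM with TBBPA, against 6.37 and 5.98 FPKM with DMSO at D28 (adjusted p = 0.00473 and 0.0255). Col16a1 had 6.52 and 6.63 FPKM with TBBPA, against 8.74 and 9.77 FPKM with DMSO at D28 (log2 change -0.52, adjusted p = 0.00367), after a log2 change of -0.52 at D18 (adjusted p = 0.00621). Col22a1 went the other way. It had 5.22 and 5.02 FPKM with TBBPA, against 3.83 and 3.94 FPKM with DMSO at D12 (log2 change 0.44 ± 0.09 SE, adjusted p = 0.00166), and 18.4 and 19.2 FPKM with TBBPA, against 16.98 and 16.3 FPKM with DMSO at D28 (log2 change 0.19, adjusted p = 0.173). Col19a1 and Col20a1 did not pass on any day.

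Col7a1 was higher at D12, with 0.92 and 1.08 FPKM with TBBPA, against 0.74 and 0.65 FPKM with DMSO (log2 change 0.56 ± 0.14 SE, adjusted p = 0.00805). At D28 it had 3.39 and 3.54 FPKM with TBBPA, against 4.72 and 4.25 FPKM with DMSO (log2 change -0.34, adjusted p = 0.0648), and the effect differed between the days (adjusted p = 0.00532). Col13a1 fell at D18, with 1.41 and 1.03 FPKM with TBBPA, against 2.11 and 2.15 FPKM with DMSO (log2 change -0.76, adjusted p = 0.0309). Col25a1 fell at D28, with 0.59 and 0.42 FPKM with TBBPA, against 0.93 and 1 FPKM with DMSO (log2 change -1.06, adjusted p = 0.00673). Its TBBPA libraries also lay under DMSO in FPKM at D12, with 0.54 and 0.54 against 0.75 and 0.76. At D18 they had 2.52 and 2.34 FPKM, against 3.19 and 2.94 with DMSO. The sum of the neuron markers was higher with TBBPA on both of those days, and the part of neurons in Col25a1 was not tested. Col26a1 fell at both late days, with 23.2 and 18.3 FPKM with TBBPA, against 28.8 and 31.9 FPKM with DMSO at D18 and 22.4 and 23.6 FPKM with TBBPA, against 30.1 and 28.8 FPKM with DMSO at D28 (adjusted p = 0.00144 and 0.0321). Col17a1 and Col23a1 passed on no day. Adjusted p-values for a difference of the TBBPA effect between the 5 days were under 0.05 for 11 members, where 10.4% of all genes passed, and they included Col1a2 (0.0379), Col4a4 (0.0154), Col4a6 (0.0317), Col16a1 (0.0379) and Col26a1 (0.0222). That count was 7 without DMSO replicate 2 of D12 or of D18, 22 without the 10 nM library of D18, and 0 with each DMSO pair summed.

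Each dose was also set against DMSO over the 5 days, in a fit of the 20 EB libraries with day as a term. With 10 nM, 1 member was higher and 11 were lower, where 9.68% of all genes passed (5.44% higher and 4.25% lower). TMM gave 873 genes higher and 682 lower, and library size alone 657 and 775. Col22a1 was the higher one (log2 change 0.23 ± 0.06 SE, adjusted p = 0.0293), and the lower ones were Col4a3, Col6a6, Col4a4, Col5a3, Col15a1, Col8a2, Col14a1, Col12a1, Col8a1, Col3a1 and Col1a1. With 100 nM, 0 were higher and 24 lower, where 15.6% of all genes passed (7.53% higher and 8.09% lower), led by Col4a3, Col4a4, Col6a6, Col6a3, Col19a1, Col14a1, Col15a1, Col10a1, Col8a2, Col3a1, Col5a2, Col12a1, Col1a1, Col13a1 and Col8a1. Col3a1 had a mean log2 change of -0.37 ± 0.11 with 10 nM (SE; adjusted p = 0.0494) and of -0.76 ± 0.12 with 100 nM (adjusted p = 0.000514). Col8a2 had -0.57 ± 0.12 with 10 nM and -0.81 ± 0.12 with 100 nM (SE; adjusted p = 0.0059 and 0.000261). The 2 doses share the DMSO libraries.

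Set against each other over the days, 100 nM and 10 nM differed in 0 of 43 members and in 0.0% of all genes in edgeR's test, where 6 members had an unadjusted p under 0.05 and DESeq2 also called 0 members. The log2 difference of 100 nM against 10 nM was -0.39 ± 0.13 (SE) for Col3a1, -0.27 ± 0.12 for Col1a1, -0.50 ± 0.19 for Col6a3 and -0.17 ± 0.12 for Col4a1, with adjusted p-values of 0.614, 0.75, 0.718 and 0.875. A p that misses the threshold does not show that the doses act alike. With a day left out, the count with 10 nM was 13 without D4, 18 without D9, 8 without D12, 2 without D18 and 4 without D28. With 100 nM it was 21 without D4, 26 without D9, 17 without D12, 14 without D18 and 17 without D28. Single libraries mattered too: with 10 nM, 3 members passed without the 10 nM library of D18, 5 without that of D28, and 7 without that of D12 or without either DMSO library of D18. With 100 nM, 14 passed without the 100 nM library of D18. With each DMSO pair summed, 0 members passed with 10 nM and 11 with 100 nM.

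Genes that act on collagen are given beside it, to be read against the 21.1, 10.5 and 7.09% of all genes that passed at D12, D18 and D28. Of the 18 modification genes, whose products hydroxylate, fold and export collagen chains in the cell, 4 fell at D12, 1 fell at D18, and 4 rose and 1 fell at D28. These were 22.2% of the list at D12 and 5.56% at D18, near or under the share of all genes, and 27.8% at D28. These pathway lists, like the marker lists, were chosen with earlier results of these data known. P4ha2, a subunit of the enzyme that hydroxylates collagen prolines, had 29.01 and 24.8 FPKM with TBBPA, against 38.2 and 34.2 FPKM with DMSO at D12 (log2 change -0.40 ± 0.12 SE, adjusted p = 0.0264), and P4ha1, the other main subunit, had 64.2 and 57.5 FPKM with TBBPA, against 83.2 and 83.7 FPKM with DMSO (log2 change -0.38 ± 0.11 SE, adjusted p = 0.0162). Fkbp10, a collagen chaperone, had 37.05 and 28.8 FPKM with TBBPA, against 43.6 and 45.05 FPKM with DMSO at D18 (adjusted p = 0.0197). P3h3, a prolyl 3-hydroxylase family member, had 12.5 and 11.6 FPKM with TBBPA, against 13.7 and 15.3 FPKM with DMSO at D18 and did not pass (adjusted p = 0.102). At D28, Plod3, which hydroxylates and glycosylates collagen lysines and is needed for type IV, rose, with 107 and 97.3 FPKM with TBBPA, against 84.8 and 84.5 FPKM with DMSO (log2 change 0.29 ± 0.06 SE, adjusted p = 0.00664), while P3h3 fell, with 20.2 and 21.6 FPKM with TBBPA, against 27.9 and 28.7 FPKM with DMSO (adjusted p = 0.0054).

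Of the 8 genes that trim the ends of procollagens, 1 rose at D9, 1 rose and 2 fell at D12, 3 fell at D18 and 2 fell at D28, or 37.5, 37.5 and 25.0% of the list at D12, D18 and D28. Adamts2, which cuts the N-propeptide of fibrillar procollagens, had 2.12 and 1.36 FPKM with TBBPA, against 3.67 and 3.42 FPKM with DMSO at D18 (log2 change -0.97 ± 0.17 SE, adjusted p = 0.000852). Pcolce, which enhances removal of the C-propeptide, had 62.5 and 46.8 FPKM with TBBPA, against 75.9 and 85.1 FPKM with DMSO at D18 and 136 and 139 FPKM with TBBPA, against 187 and 189.7 FPKM with DMSO at D28 (adjusted p = 0.00142 and 0.0109). Adamts2 had also fallen at D12 (log2 change -1.01 ± 0.21 SE, adjusted p = 0.00206) and fell at D28 (log2 change -0.64 ± 0.15 SE, adjusted p = 0.0143). Adamts3, a relative of Adamts2, was instead higher at D9 and D12, with log2 changes of 0.53 ± 0.13 and 0.51 ± 0.12 (SE; adjusted p = 0.037 and 0.00543). Of the 5 lysyl oxidase genes, which crosslink collagen, 1 fell at D18 and 1 at D28. Lox had 24.4 and 14.1 FPKM with TBBPA, against 42.3 and 42.9 FPKM with DMSO at D18 (log2 change -1.12 ± 0.17 SE, adjusted p = 0.000829), and Loxl1 had 29.9 and 38.6 FPKM with TBBPA, against 45.8 and 47.4 FPKM with DMSO at D28 (adjusted p = 0.0319). Loxl1 at D18 and Lox at D28 did not pass (adjusted p = 0.0577 and 0.0666).

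Of the 8 collagen receptor genes tested, 3 fell at D18 and 2 at D28, and none passed as higher on any day. Ddr1 nevertheless had 77.3 and 70.1 FPKM with TBBPA, against 64.2 and 61.7 FPKM with DMSO at D12. At D18 it had 86.9 and 87.1 FPKM with TBBPA, against 65.9 and 72.7 FPKM with DMSO. At D28 it had 92.8 and 100.3 FPKM with TBBPA, against 100.3 and 102 FPKM with DMSO. Ddr2, a receptor kinase for fibrillar collagens, had 4.29 and 3.5 FPKM with TBBPA, against 7.19 and 6.65 FPKM with DMSO at D18 (log2 change -0.81 ± 0.12 SE, adjusted p = 0.000198). Itga1, an integrin chain for type IV and type I collagen, had 1.62 and 1.12 FPKM with TBBPA, against 2.37 and 2.27 FPKM with DMSO at D18 (adjusted p = 0.00513), and Mrc2, an endocytic collagen receptor, had 25.1 and 26.4 FPKM with TBBPA, against 35.1 and 35.4 FPKM with DMSO at D28 (adjusted p = 0.00756). Ddr2 also fell at D28 (log2 change -0.44 ± 0.12 SE, adjusted p = 0.0308). Of the 9 regulators tested, 1 rose and 1 fell at D12, 1 rose and 1 fell at D18, and 2 fell at D28. That was 22.2% of the list on each of these days, near the share of all genes at D12. Scx, a transcription factor of tendon progenitors, had 2.47 and 1.87 FPKM with TBBPA, against 3.66 and 4.34 FPKM with DMSO at D18 and 2.83 and 3.57 FPKM with TBBPA, against 5.82 and 6.71 FPKM with DMSO at D28 (adjusted p = 0.00688 and 0.00351). Tgfb1, a growth factor that induces collagen genes, fell at D12 and D28, with log2 changes of -0.49 ± 0.12 and -0.48 ± 0.12 (SE; adjusted p = 0.00796 and 0.0216). Sox9, which drives Col2a1 and the cartilage collagens, was higher at D12 and D18, with log2 changes of 0.51 ± 0.12 and 0.38 ± 0.11 (SE; adjusted p = 0.0037 and 0.0288). Of the cartilage collagens, Col11a2 was higher at D12 and Col11a1 and Col9a2 were lower at D18. Col2a1 and the others did not pass on those days. The part of Sox9 in these results was not tested.

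Marker genes of cell types are given with the same shares of all genes in view. The 9 mesenchyme markers (Pdgfra, Pdgfrb, Prrx1, Twist1, Twist2, Thy1, Dcn, Lum and Postn) summed to 206 and 156 FPKM with TBBPA, against 275 and 279 FPKM with DMSO at D18, and to 389.5 and 392 FPKM with TBBPA, against 499 and 506 FPKM with DMSO at D28. Of these, 6 fell at D18, and 1 rose and 3 fell at D28. The 5 skeletal muscle markers (Myog, Myh3, Myl1, Myh8 and Acta1) summed to 10.8 and 8.38 FPKM with TBBPA, against 34.5 and 35.1 FPKM with DMSO at D18, and to 60.6 and 31.7 FPKM with TBBPA, against 103 and 111 FPKM with DMSO at D28, and all 5 fell on both days. The 5 neuron markers summed to 202 and 210.2 FPKM with TBBPA, against 98.2 and 104 FPKM with DMSO at D12, and to 394 and 354 FPKM with TBBPA, against 224 and 232 FPKM with DMSO at D18, and all 5 rose on both days, with 3 rising at D9 and 1 at D28. The 7 genes made with basement membrane by endoderm (Lama1, Lamb1, Lamc1, Nid1, Sparc, Thbd and Plat) summed to 656 and 609.6 FPKM with TBBPA, against 951 and 963 FPKM with DMSO at D12, and to 3392 and 2795 FPKM with TBBPA, against 2642 and 2604 FPKM with DMSO at D28. In that list 6 fell at D12, 1 fell at D18 and 2 rose at D28 (Lamb1 and Sparc), and none of the rest passed at D28. Nid1 was lower there, with 125 and 104.5 FPKM with TBBPA, against 131.7 and 134.4 FPKM with DMSO. Lamc1 was above DMSO with 10 nM alone, with 381.8 and 260.9 FPKM with TBBPA, against 269.5 and 273.5 FPKM with DMSO. Col4a1 and Col4a2 fell at D12 and rose at D28. The 5 endothelium markers (Pecam1, Cdh5, Tie1, Tek and Emcn) summed to 22.1 and 17.02 FPKM with TBBPA, against 19.4 and 18.2 FPKM with DMSO at D28, where 0 passed, and 2 had fallen at D12. The 6 basal epithelium markers summed to 461 and 435 FPKM with TBBPA, against 468 and 481 FPKM with DMSO at D28, where 2 fell. The 5 ES cell markers all fell at D12, and 0 passed at D18 and D28. The chondrocyte markers summed to 4.33 and 3.99 FPKM with TBBPA, against 4.6 and 4.65 FPKM with DMSO at D28, where 0 of 7 passed. The 8 markers of hypertrophic cartilage and bone summed to 96.6 and 88.5 FPKM with TBBPA, against 105 and 103 FPKM with DMSO at D28, where, of the 5 tested, Ihh rose and Spp1 fell, and Bglap and Ibsp were listed in 4 and 8 of the 22 libraries. The part of these cell types in the collagen results was not tested.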

How the data were processed

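RNA of 22 libraries was read from 1 deposited table per library. The authors deposited an expected count and an FPKM value per gene, per the file headers. HISAT, Bowtie2 and the build GRCm38.p5 are named in the submitters' processing notes, and the counting tool and the use of strand are not given in the sources used here. A gene missing from a table was set to 0. The main test was edgeR 4.0.16 (R 4.3.3) on the expected counts after rounding (TMM scaling, filterByExpr with a minimum count of 10, robust quasi-likelihood F test), with Benjamini-Hochberg adjustment over all genes and a threshold of 0.05. Control stages were compared in the 12 control libraries (16203 genes), TBBPA against DMSO per day in all 22 (16383 genes), and doses over days in the 20 EB libraries with day as a term (16059 genes), which made 15 comparisons. FPKM values, the authors' normalisation by length and depth, served for levels. Alternatives used DESeq2 1.42.0 and limma 3.58.1, other scalings and filters, and left-out libraries. The fits were tested on simulated counts in which all genes had the same spread. That run cannot show how the tests behave where the spread is uneven, as between the ES pair and the DMSO pairs.

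The members, classes and lists were chosen with earlier results of these data known. Values in every control group are given for the 4 members of a class with the highest mean FPKM. Passing members are named by size (up to 15 in a direction), and genes of the pathway lists are named from among the 2 with the smallest p in a comparison. Ddr1 was also named, for its levels. Libraries of 18158583 to 18998141 counts left 1 collagen gene untested, and n = 2 libraries a group limits precision. Promoters are RefSeq sequences of GRCm38.p6, found for 35 members.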

Additional observations from a re-analysis of the deposited data

Results flagged for a closer look

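The effect of TBBPA on 11 collagen genes differed between the 5 days, by edgeR's test of the difference itself in the fit of all 22 libraries. The adjusted p was 0.000234 for Col4a5, 0.00212 for Col4a1, 0.00213 for Col11a1, 0.00445 for Col5a2, 0.00532 for Col7a1, 0.0061 for Col4a2, 0.0154 for Col4a4, 0.0222 for Col26a1, 0.0317 for Col4a6, 0.0379 for Col16a1 and 0.0379 for Col1a2. Col4a1 and Col4a2 were lower with TBBPA at D12 and higher at D28. Col4a5 was higher at D9, lower at D12 like that pair, and lower at D28, unlike it. Col7a1 was higher at D12. The other 7 had values lower with TBBPA at D28, and of these Col4a6 did not pass on any single day.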

How the results depend on the processing

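Among the 15 counts of passing collagen genes, those of the control stages stayed within 1.5 times of their values under each alternative run. The TBBPA counts moved more. At D4 (0), DESeq2 gave 1, limma on log2(FPKM + 0.1) gave 2, a fit of the libraries of that day alone 1 and the 100 nM library alone 1. At D9 (1), DESeq2 gave 3, DESeq2's size factors 2, limma with 0.1 gave 0, the day alone 4, the 10 nM library alone 2 and the 100 nM library alone 3. At D12 (11), limma with 0.1 gave 7, the day alone 21 and the 10 nM library alone 7. At D18 (20) the day alone gave 11, and at D28 (19) limma with 0.1 gave 8. For the difference between days (11), limma gave 21 with a pseudocount of 1, 6 with 0.1 and 22 with 1 and no filter. For 10 nM over days (12), limma gave 0, 2 and 1 in these settings, the 2 groups alone gave 19, and leaving out D18 or D28 gave 2 or 4. For 100 nM over days (24), limma without a filter gave 15 and leaving out D18 gave 14. With DMSO pairs summed, the counts were 0 at D9, 1 at D12, 4 at D18, 0 at D28, 0 for the difference between days, 0 for 10 nM and 11 for 100 nM. Leaving out each day was added after seeing the data. The cause of these moves was not tested. The fits with libraries left out or summed also held fewer libraries. Of the collagen genes that passed in a comparison, none reversed its direction in it under the alternatives run, and the pathway and marker genes were not rerun gene by gene.

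With 1 library left out at a time, the counts were 27 to 29, 30 to 33, 26 to 27, 30 to 32 and 30 to 32 for the steps from ES cells to D28, 41 to 41 for D28 against ES cells, 0 to 1 at D4, 0 to 1 at D9, 3 to 11 at D12, 12 to 20 at D18, 7 to 12 at D28, 7 to 22 for the difference between days, 3 to 13 for 10 nM, 14 to 26 for 100 nM and 0 to 0 between the doses. The lone library was then assumed to vary like the other groups. The replicate block in the control fit gave 28, 33, 27, 35, 33 and 41 members, where the fit without it gave 28, 34, 27, 35, 34 and 41. Replicates with the same number did not deviate together (r of -0.0238 to 0.094). This cannot tell whether the numbers mark a culture or a batch, because the spread within pairs may be technical. Members under 1 FPKM rest on few counts.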
